A study of Mus musculus with 3 samples.

Results

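The mitochondrial genome of the mouse encodes 37 genes, all of which were listed in the deposited tables among 55536 genes, and they were chosen by a gene symbol that starts with mt-. They are 13 mRNAs, 2 rRNAs and 22 tRNAs. RNA of the chromatin fraction was sequenced from C57BL/6J macrophages grown out of bone marrow, with ribosomal RNA depleted, in 1 group of 3 libraries labelled biological replicates. The cells had received Lipid A, the lipopolysaccharide part that activates TLR4, at 100 ng/ml for 12 h, then 12 h without it, then 100 ng/ml again for 20 min. Untreated cells and other fractions were not analysed here, so every value is a level or a spread between libraries, no comparison between conditions was made, and none was tested.

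Mitochondrial DNA is a circle transcribed from both strands into long precursors, from which tRNAs are cut out and so release the mRNAs and rRNAs between them. The mRNAs encode core subunits of the respiratory chain, namely complexes I, III and IV, and of the ATP synthase, and the rRNAs and tRNAs serve the translation of these mRNAs inside the organelle. The mRNAs and rRNAs are made in the mitochondrion and not on nuclear chromatin, while fragments of mitochondrial DNA have been copied into nuclear chromosomes during evolution. The genes are annotated on chromosome M of mm10, with 12 mRNAs, both rRNAs and 14 tRNAs on the plus strand, and 1 mRNA (mt-Nd6) and 8 tRNAs on the minus strand.

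The starting RNA was labelled 1 µg, 250 ng and 500 ng for replicates 1, 2 and 3, and the gene tables held 13610746, 24105317 and 16517065 counts on genes. All 6 macrophage markers looked at were detected in every library. The highest was Adgre1 with 355, 374 and 272 TPM in replicates 1, 2 and 3, and the lowest Cd68 with 49.5, 18.4 and 37.8 TPM. TPM is a level scaled for transcript length and library size.

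Several mitochondrial genes could not be counted apart from nuclear copies, which bears on the values of those genes and on sums that include them. A sequence search found 15 annotated nuclear genes that match a mitochondrial gene at 90% identity or more over at least 200 bases. Of these, 7 had a mean of at least 10 counts in the gene table, the second transcript table or both, and all 7 lie side by side on the minus strand of chromosome 1 (mm10, 24611535 to 24616197), a run of 4663 bases in the same order as in the mitochondrion. Their symbols are Gm29216, Gm28661, Gm10925, Gm28437, Gm28438, Gm10222 and Gm28439, and they match mt-Co1, mt-Co2, mt-Atp6, mt-Co3, mt-Nd3, mt-Nd4l and mt-Nd4 in that order. Over the matched bases 5 of them are identical to the mitochondrial gene and 2 differ at 1 base. The other 8 copies, on other chromosomes, share 90.7 to 97.6% and had at most 5 counts in any library.

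A window of mt-Co2 (mm10 chromosome M, 7454 to 7573, plus strand) shows the difference between these kinds of copy, with bases that differ between the pair in capitals. The same 120 bases of Gm28661 on chromosome 1 (24615005 to 24615124, minus strand) are identical to mt-Co2. Gm13341 on chromosome 2 (22587414 to 22587533, minus strand) differs at 8 of the 120. The window was chosen, within limits set on its ends, to hold the most differences from Gm13341, so it is not typical. Over the whole match of 684 bases Gm13341 has 16 mismatches and 1 gap. Gm13341 was listed at 0 counts in every library and in both quantifications.
mt-Co2: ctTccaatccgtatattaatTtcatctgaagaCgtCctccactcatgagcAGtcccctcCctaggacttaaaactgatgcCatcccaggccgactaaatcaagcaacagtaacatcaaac
Gm13341: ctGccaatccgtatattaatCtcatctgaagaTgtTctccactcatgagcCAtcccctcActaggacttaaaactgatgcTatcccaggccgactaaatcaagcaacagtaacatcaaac

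The single bases that differ in mt-Nd3 and mt-Co1 are shown in capitals. Counted from 1 at the 5′ end of the mitochondrial transcript, they are T3C for Gm28438 against mt-Nd3, over 345 matched bases, and A1066T for Gm29216 against mt-Co1, over 483 matched bases. A fragment of mt-Nd3 that lacks the differing base therefore has the same sequence as the copy.
mt-Nd3: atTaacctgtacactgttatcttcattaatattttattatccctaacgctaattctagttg
Gm28438: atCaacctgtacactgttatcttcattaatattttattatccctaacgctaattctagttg
mt-Co1: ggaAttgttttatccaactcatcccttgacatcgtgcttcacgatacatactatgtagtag
Gm29216: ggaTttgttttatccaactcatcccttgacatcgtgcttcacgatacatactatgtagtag

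The gene table and the second transcript table divided these reads differently. In the gene table mt-Co2, a subunit of cytochrome c oxidase (complex IV), was listed at 0 counts in all 3 libraries, and its copy Gm28661 had 807, 438 and 725 counts in replicates 1, 2 and 3. In the second table mt-Co2 had 0.970, 0.502 and 159 counts and Gm28661 889, 525 and 668. The sum over mt-Co2 and Gm28661 was 807, 438 and 725 counts in the gene table and 890, 526 and 827 in the second table. The level of mt-Co2 alone is thus not measured here, and only the sum can be read.

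The ATP synthase subunit gene mt-Atp6 had 159, 0 and 0 counts in the gene table against 436, 252 and 509 for Gm10925. In the second table mt-Atp6 had 676, 315 and 613 counts, and Gm10925 at most 0.661 in any library. The copy took 73.2, 100 and 100% of the sum in the gene table. Another subunit gene of cytochrome c oxidase, mt-Co3, had 73.5, 113 and 0.940 counts in the gene table beside 667, 447 and 695 for Gm28437, and 804, 642 and 701 in the second table beside 0.808, 1.60 and 92.1.

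The complex I genes mt-Nd3 and mt-Nd4l had fewer counts. In the gene table mt-Nd3 was listed at 0 in every library and Gm28438 had 50, 38 and 62 counts, whereas the second table gave mt-Nd3 51.9, 55.0 and 75.0. The share of mt-Nd4l reads that the gene table gave to Gm10222 was 47.4, 0 and 31.0%, and the second table gave that copy none. For mt-Nd4 and mt-Co1, which are matched over only part of their length, the copy took at most 5.0% of the summed counts in the gene table. In the second table it took at most 13.9%. These copies are shorter than the genes, so their reads weigh more in TPM. On that scale the copy took at most 8.59% of the sum in the gene table and 22.2% in the second.

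**Figure D1:**
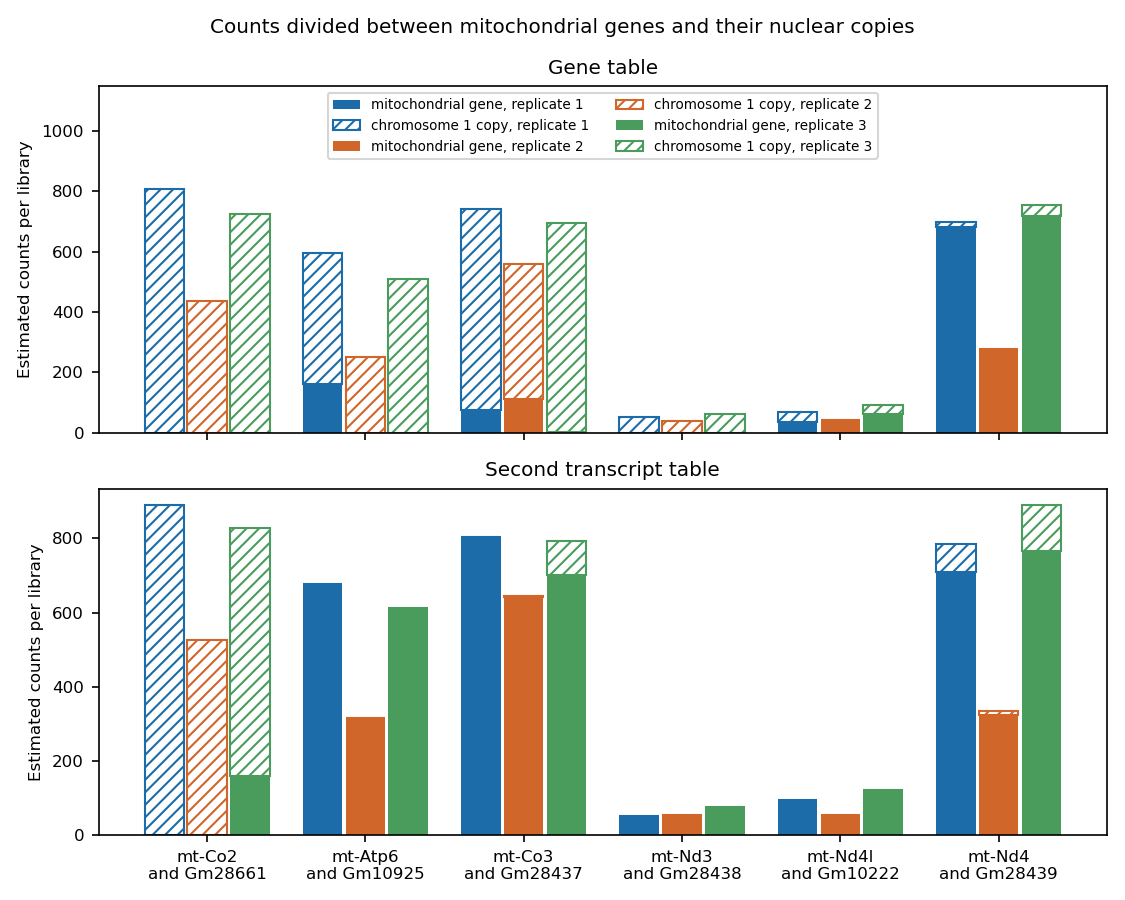
Estimated counts per library on the vertical axis for 6 mitochondrial genes (filled) and their chromosome 1 copies (hatched, stacked on top), in the gene table above and the second transcript table below. The mt-Atp6, mt-Co3 and mt-Nd3 bars are mostly hatched in the gene table and mostly filled in the second, while mt-Co2 is mostly hatched in both, and the bar heights are similar.

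The authors' own spread of each count within a library shows where this happened. For mt-Co2, listed at 0, the deposited posterior SD was 203, 97.2 and 91.0 counts, for mt-Atp6 143, 77.2 and 101 counts, and for mt-Co3 201, 165 and 158 counts. By contrast it was 0 in all 3 libraries for mt-Rnr1, mt-Rnr2, mt-Nd1, mt-Nd5, mt-Nd6, mt-Cytb and mt-Atp8, which have no annotated copy on the chromosome 1 run. In the mitochondrion mt-Atp8 lies between mt-Co2 and mt-Atp6, and no annotated gene of the run matched it. On chromosome 1 the search found no copy between Gm10925, which ends at 24614651, and Gm28661, which starts at 24614885. Only annotated transcripts were searched, so an unannotated copy of mt-Atp8 there could not be found. Its posterior SD of 0 does not exclude one, because reads are divided only among listed entries. Levels of the 7 matched genes are given below as the sum of gene and copy, so any RNA transcribed from chromosome 1 is included in them, and its part cannot be told apart.

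Mitochondrial transcripts were a small part of this chromatin RNA. In the gene table the 37 genes held 0.0738, 0.0215 and 0.0558% of counts in replicates 1, 2 and 3 (mean 0.0504 ± 0.0266%, SD, n = 3). The Wilson 95% intervals were 0.0723 to 0.0752%, 0.0209 to 0.0221% and 0.0547 to 0.0570%, and they cover counting error only. With the 7 copies added the share was 0.0887, 0.0264 and 0.0683% (mean 0.0611 ± 0.0318%). Replicate 2 was lowest, and the highest library exceeded it 3.43 fold without the copies and 3.36 fold with them. In the second table the genes alone held 0.0575, 0.0172 and 0.0447%.

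Messenger RNAs made up most of the mitochondrial counts. With copies added they took 90.5, 97.4 and 94.1% in the gene table, and the 2 rRNAs took 9.47, 2.58 and 5.90%. No tRNA had a count in the gene table. In the second table, also with copies, mRNAs took 88.5, 95.9 and 91.1%, rRNAs 11.4, 3.75 and 8.65%, and tRNAs 0.145, 0.311 and 0.221%. The rRNA share was lowest in replicate 2 in both tables. Whether the depletion reagents covered mitochondrial rRNA is not given in the sources used here, so the rRNA levels are those left after a depletion of unknown reach.

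The mRNA with most counts was mt-Co1. It encodes the catalytic subunit of cytochrome c oxidase and had 5216, 3209 and 4582 counts, against 19.6, 0 and 0 for Gm29216. Gene and copy together took 43.4, 50.5 and 40.6% of all mitochondrial counts in the gene table and 42.8, 49.5 and 39.8% in the second. Their level was 340, 94.6 and 248 TPM, and the median of the other 12 mRNAs was 59.1, 16.7 and 67.8 TPM. The excess of gene and copy over that median was 5.76, 5.67 and 3.65 fold in the gene table and 6.80, 6.84 and 4.40 fold in the second. It was thus present in every library. The 6.80 fold in replicate 1 is raised by the short copy, which held 4.23% of the summed counts but 17.3% of the summed TPM. There mt-Co1 alone had 235 TPM and the sum 285 TPM. In the second table mt-Co1 was above each of the other 12 in every library, whose highest level was 132, 27.6 and 108 TPM. In the gene table the short mt-Atp8 exceeded it in replicates 1 and 3. Among all genes mt-Co1 alone ranked 198, 570 and 213 by TPM in the gene table and 527, 1625 and 626 in the second, and by counts 316, 1143 and 417 in the gene table.

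The other cytochrome c oxidase genes were also high. With its copy mt-Co2 had 149, 38.6 and 117 TPM (mean 102 ± 56.8, SD, n = 3). With its copy mt-Co3 had 112, 39.9 and 91.1 TPM (mean 81.0 ± 37). In each library both lay above the median of the 12 in the gene table, and below mt-Co1.

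The ATP synthase genes overlap. The last 43 bases of mt-Atp8, in capitals here (whole transcript, chromosome M, 7766 to 7969, plus strand), are also the first bases of mt-Atp6. Those bases alone do not tell the 2 genes apart. The posterior SD of mt-Atp8 was nevertheless 0 in every library, so no uncertain assignment of its counts was recorded in the gene table.
mt-Atp8: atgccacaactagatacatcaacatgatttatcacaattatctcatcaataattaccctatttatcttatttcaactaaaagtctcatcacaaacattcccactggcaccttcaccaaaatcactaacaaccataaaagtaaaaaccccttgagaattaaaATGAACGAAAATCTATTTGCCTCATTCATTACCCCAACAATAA

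The level of mt-Atp8 depended on how its length was treated. It had 114, 40 and 116 counts in the gene table, and these became 347, 72.3 and 383 TPM because the effective length was only 27.8, 21.2 and 21.3 of 204 bases. With the second quantification, counts of 134, 54 and 145 over an effective length of 56.2, 58.4 and 58.8 bases gave 132, 23.3 and 108 TPM. With its copy mt-Atp6 had 110, 22.3 and 82.8 TPM in the gene table and 80.9, 16.4 and 57.5 TPM in the second. The order of these 2 genes was the same in both tables, but their distance was not.

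The 7 complex I genes, with copies added where found, had a median of 52.4, 13.1 and 48.8 TPM, and the cytochrome c oxidase genes one of 149, 39.9 and 117 TPM. On the plus strand mt-Nd1 had 56.0, 13.2 and 47.4 TPM, mt-Nd4 with its copy 52.4, 9.41 and 48.8 TPM, and mt-Nd5 51.4, 13.1 and 52.8 TPM. The lowest by mean was mt-Nd2, with 27.4, 6.05 and 29.3 TPM. The short genes mt-Nd3 and mt-Nd4l, with copies, had 31.8, 12.8 and 38.3 TPM and 62.2, 20.2 and 84.6 TPM. The complex III gene mt-Cytb, which encodes cytochrome b and lies near the end of the plus strand, had 52.7, 10.9 and 48.0 TPM.

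Some genes far apart on the plus strand had like levels within a library. The ratio of mt-Nd5 to mt-Nd1 was 0.918, 0.997 and 1.11 (mean 1.01 ± 0.0984, SD, n = 3), and that of mt-Cytb to mt-Nd1 was 0.940, 0.827 and 1.01 (mean 0.927 ± 0.0934). The plus-strand mRNAs as a whole ranged more widely, with means between 20.9 TPM for mt-Nd2 and 267 TPM for mt-Atp8.

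The one mRNA of the minus strand, mt-Nd6, is another complex I subunit and is made from the opposite promoter. It had 321, 175 and 466 counts and 91.2, 24.4 and 119 TPM. This was 1.63, 1.86 and 2.26 times the median of the 11 plus-strand mRNAs other than mt-Co1, and 1.62, 1.72 and 2.03 times in the second table. Whether counting used strand is not given in the sources used here, and mt-Nd6 shares 14 bases with mt-Nd5, so reads of mt-Nd6 and of plus-strand RNA across the same bases cannot be told apart.

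**Figure D2:**
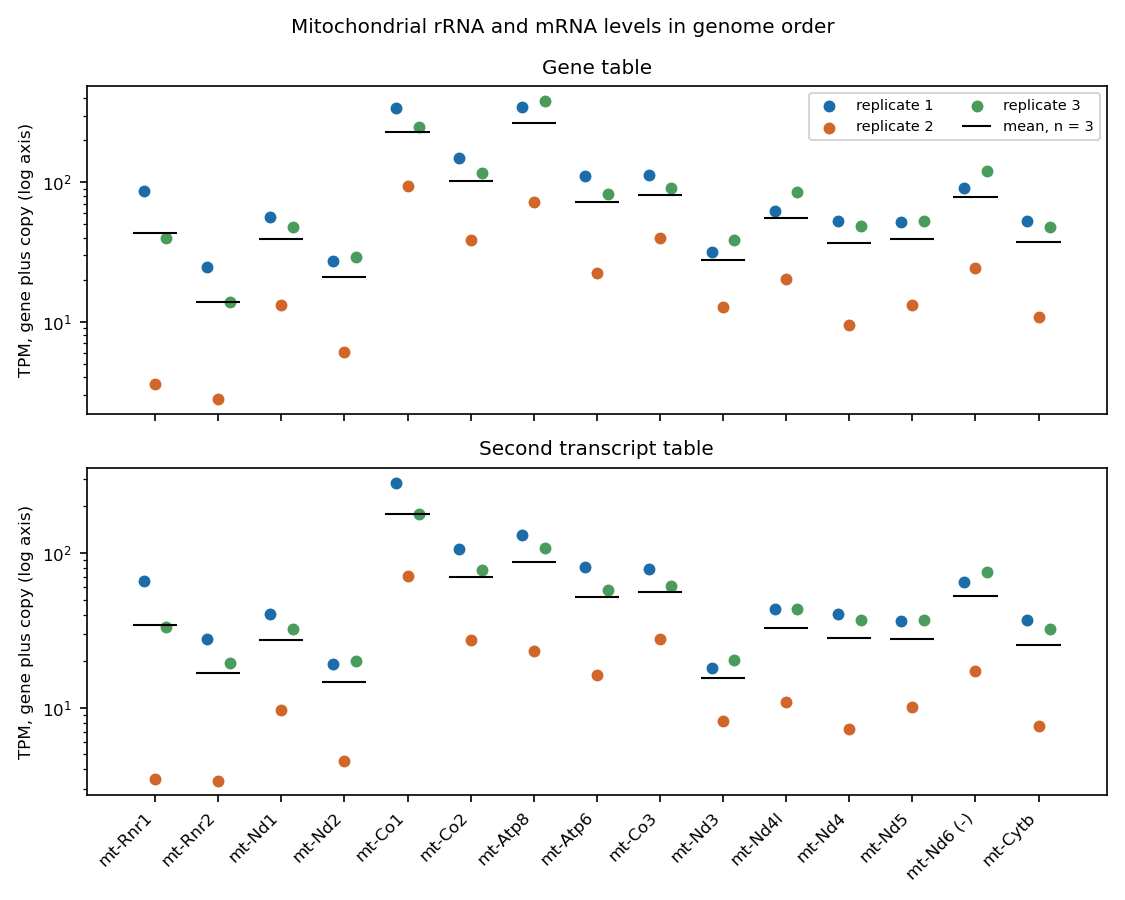
TPM of gene plus copy on a log axis for the 2 rRNAs and 13 mRNAs in genome order, per library, in the gene table above and the second transcript table below; lines are means of 3 libraries and (-) marks the minus strand. Replicate 2 lies lowest for every gene, and mt-Co1 stands above mt-Nd2 and mt-Co2 on either side of it in both panels; mt-Atp8 has the highest mean in the upper panel, 267 TPM.

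The rRNAs lay below the median mRNA, except mt-Rnr1 in replicate 1. The small-subunit rRNA mt-Rnr1 had 746, 66 and 402 counts and 86.2, 3.57 and 39.8 TPM. The large-subunit rRNA mt-Rnr2 had 397, 98 and 263 counts and 24.7, 2.81 and 13.8 TPM. Relative to the median of the 13 mRNAs mt-Rnr1 was at 1.39, 0.177 and 0.481 and mt-Rnr2 at 0.398, 0.139 and 0.167. These ratios in the second table were 1.52, 0.318 and 0.768 for mt-Rnr1 and 0.640, 0.312 and 0.446 for mt-Rnr2, with the same exception. The ratio of mt-Rnr1 to mt-Rnr2 was 3.49, 1.27 and 2.88 in the gene table and 2.37, 1.02 and 1.72 in the second table. Per length mt-Rnr1 was thus the higher in replicates 1 and 3, in what a depletion of unknown reach had left, and no stoichiometry is read from it. In replicate 2 the 2 were nearly equal in the second table, with 104 and 186 counts, and the gene table held only 66 and 98 counts.

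The libraries differed far more in these transcripts than in most genes. The spread was measured by the SD of log2 CPM, the count scaled to library size with TMM factors, over the 3 libraries. Of the 37 genes, 12 reached a mean of 50 counts, of which 12 had an SD of at least 0.5, while 8.42% of all 11630 genes at that mean did so. Of these 12, 11 were lowest in replicate 2, as were 35.7% of all genes at that mean, and the exception was mt-Co3, one of the genes that share reads with a copy. The 11 include mt-Atp6, which was tied at 0 in replicates 2 and 3 and reached the mean only through 159 counts in replicate 1. A high SD of mt-Atp6 thus follows from how it passed. The SDs of mt-Atp6 and mt-Co3, 3.86 and 2.83, depend on how reads were divided with the copies. With copies added they were 1.04 and 0.60. The 3 mRNAs under a mean of 50 counts were mt-Co2, mt-Nd3 and mt-Nd4l, and the rest were tRNAs. The median SD of the 12 genes at that mean was 1.11, against 0.20 for all genes at that mean. Without replicate 2 it was 0.20, against 0.14 for all genes, so the difference rests on replicate 2, and without replicates 1 and 3 in turn it was 1.35 and 1.32, against 0.14 and 0.20. The low library was the deepest and had the smallest labelled starting amount, and these properties and the replicate cannot be told apart.

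With copies added, all 15 mRNAs and rRNAs were lowest in replicate 2, in both quantifications. The difference was uneven. The highest library exceeded the lowest in CPM by 18.4 fold for mt-Rnr1 and 6.70 fold for mt-Rnr2, and by 2.23 fold (mt-Co3) to 4.58 fold (mt-Atp8) for the mRNAs, with a median of 3.34. For mt-Co1 it was 2.76 fold. The same folds in the second table were 14.7 for mt-Rnr1, 6.51 for mt-Rnr2 and 2.75 for mt-Co1, and the median of the mRNAs was 3.28. The rRNA folds are those after depletion, and whether it was equal between libraries was not tested. Without the copies the gene table would give 103 fold for mt-Atp6 and 31.2 fold for mt-Co3, which have fitted values near 0 in some libraries, so those folds describe how reads were divided. The highest library was replicate 1 for 10 of the 15 and replicate 3 for 5.

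**Figure D3:**
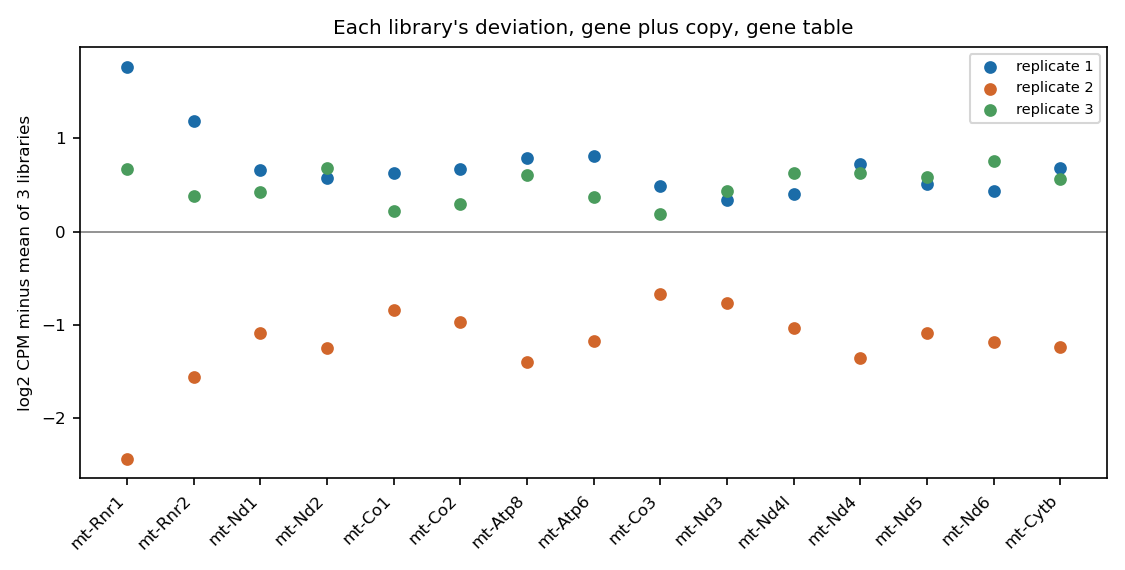
Deviation of each library's log2 CPM from the mean of 3 libraries, for 15 mitochondrial transcripts with copies added, gene table. Replicate 2 lies below 0 for all 15, and its distance from the other libraries is widest for mt-Rnr1, where the SD was 2.18, and mt-Rnr2, where it was 1.41.

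A list of nuclear genes, most of them for transcribing, processing or degrading mitochondrial RNA, did not show this spread, and neither did most genes. The list also holds genes of other roles, such as the DNA polymerase gene Polg, so its counts and median are not those of RNA genes alone. Of 38 listed genes 37 were matched, and 33 had a mean of 50 counts. Of those 33, 0 had an SD of at least 0.5, beside 8.42% of all genes at that mean. Lowest in replicate 2 were 9 of the 33, beside 35.7% of all genes. The median SD of the 33 was 0.13, beside 0.20 for all genes. The mitochondrial RNA polymerase gene Polrmt had 8.18, 13.0 and 10.9 TPM, and Tfam, the gene of the factor that packages mitochondrial DNA and starts its transcription, 4.52, 1.99 and 1.95 TPM. Their SDs of log2 CPM were 0.44 for Polrmt and 0.06 for Tfam, so the higher TPM of Tfam in replicate 1 was not seen in its CPM. The most abundant were Pnpt1, a ribonuclease of mitochondrial RNA decay, with 54.9, 40.5 and 39.3 TPM, the DNA polymerase gene Polg with 35.6, 45.4 and 40.6 TPM, and the single-strand binding protein gene Ssbp1 with 39.2, 29.8 and 40.8 TPM. The lowest was the helicase gene Twnk, with 1.67, 1.38 and 1.59 TPM. Their RNA is nuclear, so their levels describe transcripts of another compartment.

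The tRNAs were hardly covered. They are 59 to 75 bases long, and the labelled size range lies wholly above those lengths. Each is also shorter than the minimum match of the search for nuclear copies, so copies of tRNAs could not be found. The gene table gave all 22 an effective length of 0 and 0 counts, so the 0 follows from the method and sets no limit on their level. The second table, where the effective length was 13.7 to 16.9 bases, held 20, 24 and 30 tRNA counts in replicates 1, 2 and 3.

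The few tRNA counts lay mostly on the minus strand. Of 74 counts over the 3 libraries, 69 were on minus-strand tRNAs and 5 on plus-strand tRNAs. All 8 minus-strand tRNAs had a count, whereas 10 of the 14 plus-strand tRNAs were at 0 in every library. A count of 0 in the second table allows up to 3 counts, which is 0.137, 0.0719 and 0.106 CPM for replicates 1, 2 and 3. Serine tRNA mt-Ts1 had 5, 7 and 10 counts, alanine tRNA mt-Ta 4, 4 and 6, glutamate tRNA mt-Te 6, 1 and 4, and proline tRNA mt-Tp 4, 5 and 1. Of the others on this strand mt-Tc had 1, 1 and 3 counts, mt-Tn 0, 1 and 3, mt-Tq 0, 1 and 0, and mt-Ty 0, 0 and 2. On the plus strand only mt-Td, mt-Tg, mt-Th and mt-Tl2 had a count, each in 1 library and at most 2. The 10 at 0 were mt-Tf, mt-Tv, mt-Tl1, mt-Ti, mt-Tm, mt-Tw, mt-Tk, mt-Tr, mt-Ts2 and mt-Tt.

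The 4 tRNAs with most counts are shown whole, 5′ to 3′ on the minus strand of chromosome M (mt-Ts1 at 6870 to 6938, mt-Ta at 5018 to 5086, mt-Te at 14071 to 14139 and mt-Tp at 15356 to 15422), with no bases in capitals. They lie opposite to or beside plus-strand precursor RNA, and reads of a mature tRNA and of longer RNA across it, on either strand, cannot be told apart.
mt-Ts1: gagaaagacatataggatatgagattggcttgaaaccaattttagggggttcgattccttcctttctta
mt-Ta: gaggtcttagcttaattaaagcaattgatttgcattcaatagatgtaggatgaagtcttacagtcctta
mt-Te: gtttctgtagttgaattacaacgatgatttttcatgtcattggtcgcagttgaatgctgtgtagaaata
mt-Tp: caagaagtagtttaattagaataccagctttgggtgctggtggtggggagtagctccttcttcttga

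**Figure D4:**
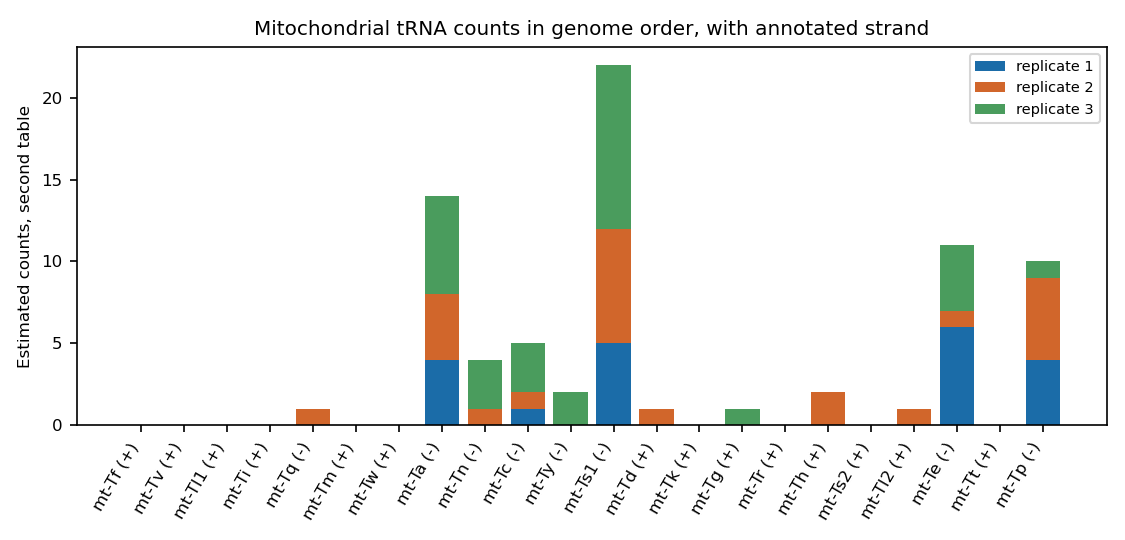
Estimated counts of the 22 mitochondrial tRNAs in the second transcript table, in genome order with the annotated strand, stacked over the 3 libraries. Counts lie on the 8 minus-strand tRNAs with few exceptions, led by mt-Ts1, with 5, 7 and 10 counts.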

How the data were processed

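Chromatin RNA of 1 group of 3 libraries was used. Per the file headers and deposited notes, the values refer to mm10 and annotation M21. The authors' expected counts and TPM were read from gene-level files, a first set of transcript-level files (equal for all 37 genes) and a second transcript set of estimated counts and TPM. The posterior SD that the authors deposited per gene was used as a score of uncertain assignment. The programs were not given in the sources used here. Library size was the sum over genes, leaving out spike-ins, phiX and numbered entries (2.46, 0.484 and 0.327% of counts).

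Nuclear copies were found with blastn 2.17.0 in GENCODE M21 transcripts (GRCm38), from which sequences were also read. Log2 CPM used counts rounded to whole numbers, TMM factors of edgeR 4.0.16 and a prior count of 2, in R 4.3.3, and was checked on simulated data, with DESeq2 1.42.0 scaling tried as well. Python 3.11.15 with pandas 2.3.3 made the tables. The rule for named genes took all 37 members, copies with a mean of at least 10 counts in either table, and the 3 highest and the lowest of the listed nuclear genes with Polrmt and Tfam. Gm13341 was named outside this rule, after its values were seen. Prorp had no match. The members and lists were chosen with earlier results of these data known. One donor entry is shared by every library in the labels, and whether the spread between them is technical cannot be told apart.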

Additional observations from a re-analysis of the deposited data

How the results depend on the processing

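No paired analysis was possible because the series has 1 group. Of the shares, the mitochondrial one moved by over 1 SD only on the TPM scale, where it was 0.0855% (0.0696% in the second table), and the ratio of highest to lowest library was 2.11 log2 units on that scale, against 1.78 in counts and 1.74 in the second table. The tRNA share was 0 in the gene table and 0.243% in the second table, which gives short transcripts an effective length above 0. Adding nuclear copies, an alternative chosen after seeing the data for all but the mitochondrial share of the gene table, gave 94.0% for the mRNA share, 5.98% for the rRNA share and 0.0431% for the mitochondrial share of the second table, all within 1 SD. The median SD of log2 CPM over the 10 mRNAs with a mean of 50 counts was 1.08. It was 0.95 over all 13 with copies added, 0.97 in the second table, 1.08 with DESeq2 size factors and 1.21 on log2(TPM + 1), and leaving out 1 library gave 0.15 to 1.31, the lowest without replicate 2. Shares without 1 library stayed within 1 SD. Low counts limit the precision for mt-Nd3, at about 50 counts, and for the tRNAs, at 20 to 30 counts in all.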
